A study of Mus musculus with 6 samples.

Results

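The circular RNAs (circRNAs) of 9 ionotropic glutamate receptor genes, Gria1, Gria2, Gria3, Gria4, Grin2a, Grin2b, Grik1, Grik2 and Grid1, were described in mouse cortex after Status Epilepticus. A circRNA was taken as a member when the host gene listed for it was 1 of these genes. All 9 genes had at least 1 row, and 46 of the 11171 circRNAs in the table were members. Cortex RNA came from 3 Control mice and 3 temporal lobe epilepsy (TLE) mice, each sequenced as its own library, and all 6 mice were males aged 6 weeks, labelled C57BL/6 and named C57BL/6J in the methods of the study. TLE mice received scopolamine methyl bromide and then pilocarpine, a muscarinic agonist that starts seizures, were given diazepam to end Status Epilepticus, and were sampled 24 h after it. Control mice received saline in place of these agents, so the effects of the seizures and of the agents cannot be told apart. The expression of each circRNA was given in SRPBM, the reads across its back-spliced junction scaled to a fixed number of mapped reads.

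Ionotropic glutamate receptors are tetrameric ion channels that open when glutamate binds, and they carry most fast excitatory transmission in the cortex. AMPA receptors (Gria genes) carry the fast current, NMDA receptors (Grin genes) admit calcium once the membrane is depolarized, kainate receptors (Grik genes) tune release and excitability, and the delta receptor of Grid1 acts mainly in synapse organization. A circRNA forms when the end of an exon is spliced back onto its own start or onto an earlier exon, and many brain circRNAs come from genes of synaptic proteins. The level of a circRNA does not give the level of the mRNA of its host gene, which was not measured in this table.

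The libraries held between 32504 junction reads in TLE replicate 1 and 56516 in TLE replicate 3, of which between 133 and 237 belonged to the 46 receptor circRNAs. TLE replicate 3 also had the highest total SRPBM (489032, against 330961 to 409021 in the others). It did not have the most mapped reads, since 1 junction read stood for 8.65 SRPBM there and for 8.55 SRPBM in Control replicate 1. The receptor circRNAs had 980 junction reads over the 6 libraries, or 0.386% of all junction reads, and a median of 5 reads each, the same median as all circRNAs in the table. Of the 46, 9 (19.6%) were detected in all 6 libraries, against 13.9% of all circRNAs, and 21 (45.7%) in a single library, against 45.4%. The 5 circRNAs with the most reads carried 54.4% of the receptor reads, while 21 of the 46 had at most 3 reads in total. A value of 0 is given as listed, because the smallest value in the table above 0 stands for 2 reads.

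Of the 46 circRNAs, 40 had both ends on annotated exon edges of the host gene, and 38 could be placed on 1 transcript holding both edges (GENCODE M21, build GRCm38). The 38 had a median of 3 exons and a median of 596 nucleotides, with a range of 282 to 2050, as counted from the annotated exons in between. Of the 38, 36 held coding exons alone, 1 circle of Grin2b held the start codon, 1 other circle of Grin2b held no coding base, and 0 held the last coding exon. In 24 of the 38, the encoded residues all lay before the midpoint of the protein. This count is not limited to the amino-terminal domain, since it takes in Grin2b residues 376 to 670 of 1482, which reach the ligand-binding and channel-forming parts. In all, 37 of the 46 circRNAs shared an end with another circRNA of the same gene.

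**Figure D1:**
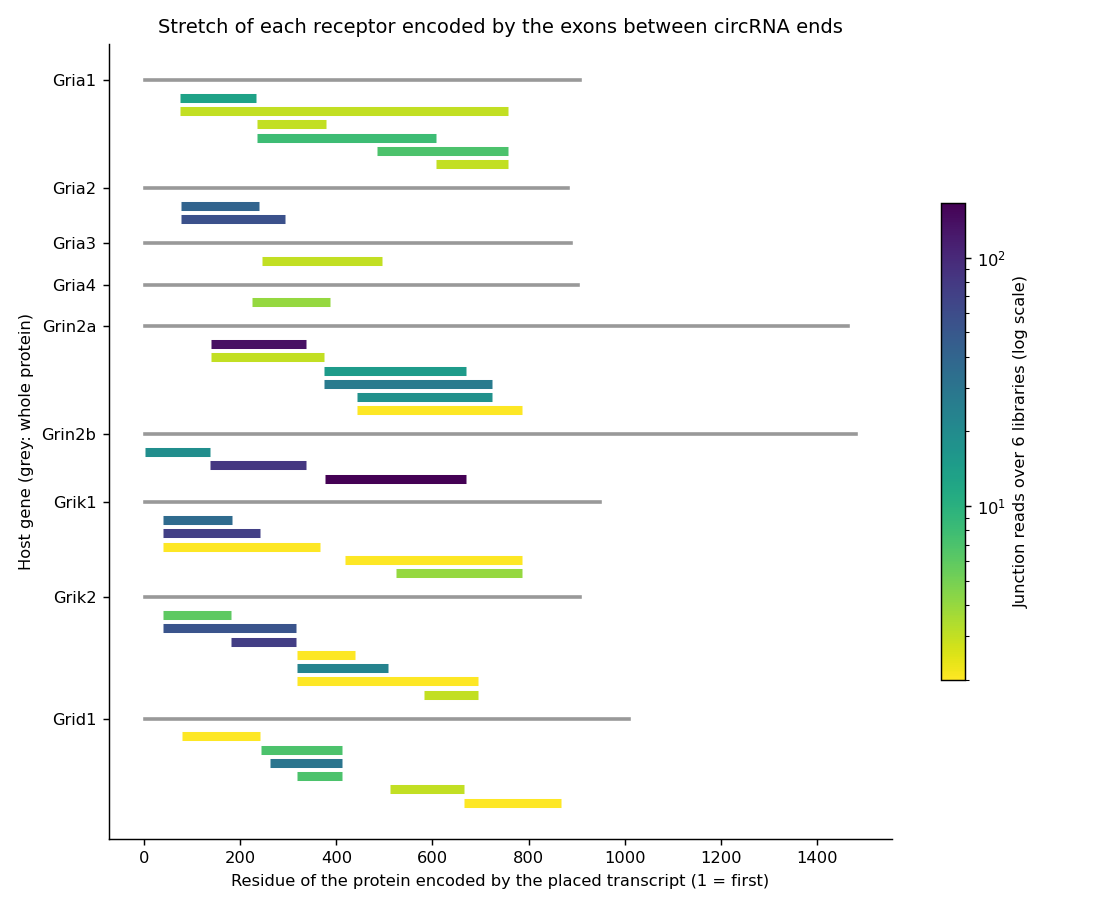
Residues encoded by the exons between the ends of each placed circRNA (coloured bars, 37 circRNAs with coding exons), drawn along the protein of its host gene (grey lines, residues counted from 1). Colour gives the junction reads over the 6 libraries on a log scale, and the darkest bars are Grin2b residues 376 to 670 (166 reads) and Grin2a residues 139 to 336 (138 reads).

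Circles with similar residue numbers occurred in related genes. Among genes of the same subfamily, 5 pairs of circRNAs had encoded stretches whose residue numbers differed by 10 or fewer at both ends. The junctions of the 4 pairs with the most reads are shown because they are the sequences that the reads had to cross. Each is written 5′ to 3′ on the strand of the gene, with the last 15 bases of the circle in lower case and the first 15 bases of its first exon in capitals.
Grin2b mmu_circ_0008486, chr6:135772193-135780336, minus strand: ctgagtgacaagaagGTGGGAAAATGGAAA
Grin2a mmu_circ_0003507, chr16:9653396-9669910, minus strand: ctcagtgacaagaagGTGGGCAAGTGGGAG
Grin2b mmu_circ_0008487, chr6:135922872-135923470, minus strand: taacatgctgaatagGATGAGTCCTCCATG
Grin2a mmu_circ_0003518, chr16:9761391-9761983, minus strand: acacactctgcaccaGATCCGACATCCACG
Grik1 mmu_circ_0003446, chr16:88051335-88056175, minus strand: acgaagacagcacagGAGGGATTTTTGAAA
Grik2 mmu_circ_0000253, chr10:49573564-49578302, minus strand: atgacgacagcactgGTGGTATATTTGAAT
Gria2 mmu_circ_0006891, chr3:80726832-80741198, minus strand: atcattgcaaatctgTCTGCTCCCAGTTTT
Gria1 mmu_circ_0000841, chr11:57185793-57201179, plus strand: atcctcgccaacctgTCTGTTCCCAGTTCT

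The Grin2b circle of residues 376 to 670 and the Grin2a circle of residues 375 to 669 both held 5 exons and 885 nucleotides. Their exon sequences were 73.4% identical in a global alignment, and 25 of the 30 junction bases shown were the same. The levels of this pair were far apart, with 166 junction reads for Grin2b and 15 for Grin2a over the 6 libraries. The pair of single-exon circles, Grin2a residues 139 to 336 (593 nucleotides) and Grin2b residues 138 to 337 (599 nucleotides), had the opposite order, with 138 reads for Grin2a and 82 for Grin2b, and 17 of their 30 junction bases were identical. The kainate pair, 426 nucleotides in both genes, had 36 reads in Grik1 and 6 in Grik2, and 23 of its 30 junction bases were identical. The AMPA pair had 41 reads in Gria2 and 13 in Gria1, with 24 of 30 bases identical. The fifth pair, in Gria1 (3 exons, 435 nucleotides) and Gria4 (4 exons, 486 nucleotides), rested on 3 and 4 reads, with 11 of 30 bases identical. It was matched by residue number alone and differed in exon number and length.

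Grin2a and Grin2b, the NMDA receptor genes among the members, carried 50.8% of the receptor junction reads. Grin2b encodes GluN2B, a glutamate-binding subunit that is prominent early in life and closes slowly. Its 6 circRNAs had a summed level of 393, 446 and 379 SRPBM in Control replicates 1, 2 and 3 and of 444, 386 and 588 SRPBM in TLE replicates 1, 2 and 3. The groups overlapped, and TLE replicate 3 was the only TLE library above all Control libraries. Its leading circle, mmu_circ_0008486 (exons 6 to 10 of 14), is the one printed above with residues 376 to 670, a stretch that reaches into the ligand-binding and channel-forming parts of the subunit. This circle was at 179, 232 and 233 SRPBM across the Control mice (215 ± 30.6, SD, n = 3) against 279, 245 and 329 SRPBM across the TLE mice (284 ± 41.9, SD, n = 3). The lowest TLE library lay above the highest Control library, and the log2 fold change of 0.38 (standard error 0.27) did not pass the test (unadjusted p = 0.187, adjusted p = 0.922, limma). As a percent of the total SRPBM of the library the groups overlapped, since TLE replicates 2 and 3 lay below Control replicate 2 (0.0702%), and with the libraries scaled to the same total the log2 fold change was 0.17. The single-exon circle mmu_circ_0008487 (exon 4) was at 120, 130.2 and 86.1 SRPBM across the Control mice against 103, 70.1 and 225 SRPBM across the TLE mice, so TLE held both its lowest and its highest library. The Grin2b circle with the start codon, exon 3, had 19 reads over 5 libraries. The circle without coding bases, exon 2, had 6 reads, all in Control replicates 1 and 2.

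Grin2a encodes GluN2A, the subunit that becomes more prominent as the cortex matures. Its 7 circRNAs had a summed level of 299, 195 and 284 SRPBM in Control (260 ± 56.2, SD, n = 3) and of 372, 307 and 389 SRPBM in TLE (356 ± 43.5, SD, n = 3). The groups did not overlap as deposited, with a log2 fold change of 0.45 (standard error 0.29, unadjusted p = 0.138, adjusted p = 0.853, limma). The exact permutation test gave p = 0.1, the smallest that 3 against 3 libraries allow. Taken as a percent of the total SRPBM of the library, the groups overlapped, at 0.0590 to 0.0851% in Control and 0.0750 to 0.111% in TLE. The single-exon circle mmu_circ_0003518 (exon 2 of 12) held 67.8% of the Grin2a level. It was at 239, 112 and 181 SRPBM across the Control mice against 320.2, 123 and 277 SRPBM across the TLE mice, and TLE replicate 2 lay below 2 of the 3 Control libraries. The Grin2a circle that matches the leading Grin2b circle, mmu_circ_0003507 (exons 4 to 8), was listed at 0, 18.6 and 0 SRPBM across the Control mice against 31.0, 70.1 and 17.3 SRPBM across the TLE mice. It had the highest log2 fold change of the tested receptor circRNAs, 1.26 (standard error 0.64, unadjusted p = 0.0665, adjusted p = 0.922, limma), on 15 reads in all, and TLE replicate 3 lay below Control replicate 2. With Control replicate 2 left out its log2 fold change was 1.62 and with TLE replicate 3 left out 1.57, and it was past the calling threshold in both cases. Without Control replicate 2 it was listed at 0 in the other Control libraries and entered the fit only through TLE, so that call is a description. Overlapping Grin2a circles with other ends had log2 fold changes of -0.47 for mmu_circ_0003506 (exons 4 to 9) and 0.61 for mmu_circ_0003505 (exons 5 to 9), neither past the test.

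Grik1 and Grik2, the kainate receptor genes among the members, carried 29.0% of the reads. Grik2 encodes GluK2, a principal pore-forming kainate subunit, and had the most circRNAs of the 9 genes, 9 in all. Their summed level was 197, 186 and 241 SRPBM in Control (208 ± 29.3, SD, n = 3) and 289, 281 and 320.2 SRPBM in TLE (297 ± 20.8, SD, n = 3). The groups did not overlap as deposited, limma gave a log2 fold change of 0.49 (standard error 0.29) with an unadjusted p of 0.113 and an adjusted p of 0.849, and the exact permutation p was 0.1. As a percent of the total SRPBM the highest Control library (0.0670%) was above the lowest TLE library (0.0655%). The leading circle, mmu_circ_0000251 (exons 4 to 6 of 16, residues 181 to 317 of 908), lies in the stretch for the extracellular amino-terminal domain. It was at 51.3, 121 and 103 SRPBM across the Control mice against 176, 87.7 and 147 SRPBM across the TLE mice, with TLE replicate 2 inside the Control range. A longer circle, mmu_circ_0000252, ends at the same exon 6 and starts at exon 2, and was at 59.8, 37.2 and 112 SRPBM in Control and 51.6, 123 and 86.5 SRPBM in TLE. The order of these libraries was not the same for both circles, since TLE replicate 1 was the highest library for the shorter circle and the second lowest for the longer one. The other Grik2 circle detected in all 6 libraries, mmu_circ_0000249 (exons 7 to 10), was at 34.2, 27.9 and 25.8 SRPBM across the Control mice against 41.3, 35.1 and 43.3 SRPBM across the TLE mice. Its groups did not overlap, but each of these values stands for 3 to 5 reads. Its log2 fold change in limma was 0.30 (standard error 0.54, unadjusted p = 0.589, adjusted p = 0.923).

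Grik1 encodes GluK1, a kainate subunit known from interneurons. Its 5 circRNAs had a summed level of 171, 158 and 155 SRPBM in Control and of 165, 114 and 277 SRPBM in TLE. The Control libraries lay close together (161 ± 8.43, SD, n = 3) and inside the TLE range (185 ± 83.3, SD, n = 3). The leading circle mmu_circ_0003445 spanned exons 2 to 4 of 18 (residues 40 to 242 of 949). It was at 85.5, 93.0 and 60.3 SRPBM across the Control mice against 82.6, 114 and 208 SRPBM across the TLE mice. The shorter circle that starts at the same exon, mmu_circ_0003446 (exons 2 and 3), was at 68.4, 46.5 and 77.5 SRPBM across the Control mice against 62.0, 0 and 69.2 SRPBM across the TLE mice. It had the lowest log2 fold change among the tested receptor circRNAs, -0.71 (standard error 0.61, unadjusted p = 0.261, adjusted p = 0.922, limma), and without TLE replicate 2, where it was listed at 0, the value was 0.044.

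AMPA receptor genes carried 14.8% of the reads. Gria2 encodes GluA2, the subunit whose edited form keeps AMPA receptors from passing calcium, and its 4 circRNAs had a summed level of 154, 195 and 77.5 SRPBM in Control and of 155, 114 and 216 SRPBM in TLE. A pair of circles that start at exon 3 made up nearly all of it. The longer, mmu_circ_0006890 (exons 3 to 6 of 16, residues 77 to 294 of 883), was at 68.4, 93.0 and 34.5 SRPBM across the Control mice against 103, 70.1 and 129.8 SRPBM across the TLE mice. The shorter, mmu_circ_0006891 (exons 3 to 5), had a log2 fold change of -0.039 (standard error 0.46), against 0.56 (standard error 0.43) for the longer, and neither passed the test. Gria1 encodes GluA1, the subunit whose delivery to synapses changes with activity. Its 6 circRNAs had a summed level of 94.0, 37.2 and 0 SRPBM in Control and of 82.6, 26.3 and 95.2 SRPBM in TLE. The leading Gria1 circle, mmu_circ_0000841, was listed at 42.7, 0 and 0 SRPBM across the Control mice against 0, 26.3 and 43.3 SRPBM across the TLE mice. Gria4 and Gria3, the other 2 AMPA subunit genes, had 1 circRNA each. The Gria4 circle, mmu_circ_0010467 at chr9:4502374-4519539, had 2 reads in Control replicate 2 and 2 in TLE replicate 2. The Gria3 circle, mmu_circ_0011048 at chrX:41588464-41598660, had 3 reads, all in Control replicate 3.

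The delta receptor gene Grid1 encodes GluD1, which binds secreted synaptic organizers and does not carry the usual glutamate current. Its 7 circRNAs had a summed level of 76.9, 0 and 77.5 SRPBM in Control (51.5 ± 44.6, SD, n = 3) and of 72.3, 78.9 and 164 SRPBM in TLE (105 ± 51.4, SD, n = 3). Apart from Control replicate 2, listed at 0, and TLE replicate 3, the 4 other libraries lay between 72.3 and 78.9 SRPBM. In limma the sum had a log2 fold change of 1.12 (standard error 0.64, unadjusted p = 0.0955, adjusted p = 0.844). The value depends on the library at 0, and it was 2.44 (not called) with a pseudocount of 1 SRPBM and 0.30 with Control replicate 2 left out. With Control replicate 1 or Control replicate 3 left out it was 1.53 in both cases and past the calling threshold. The leading circle, mmu_circ_0002508 at chr14:35309232-35323434 (exons 6 to 8 of 16, residues 261 to 411 of 1009), is shown by its junction because it carried 56.2% of the Grid1 level, written as for the junctions above.
Grid1 mmu_circ_0002508, chr14:35309232-35323434, plus strand: aaagacatgcgcaagGAAATCAGTGACCCC
It was at 59.8, 0 and 43.1 SRPBM across the Control mice against 31.0, 52.6 and 77.9 SRPBM across the TLE mice, with overlapping groups. A circle nested in it, mmu_circ_0002509 (exons 7 and 8), was listed at 0 in all 3 Control libraries and had 4 reads in TLE replicate 1 and 3 in TLE replicate 3.

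**Figure D2:**
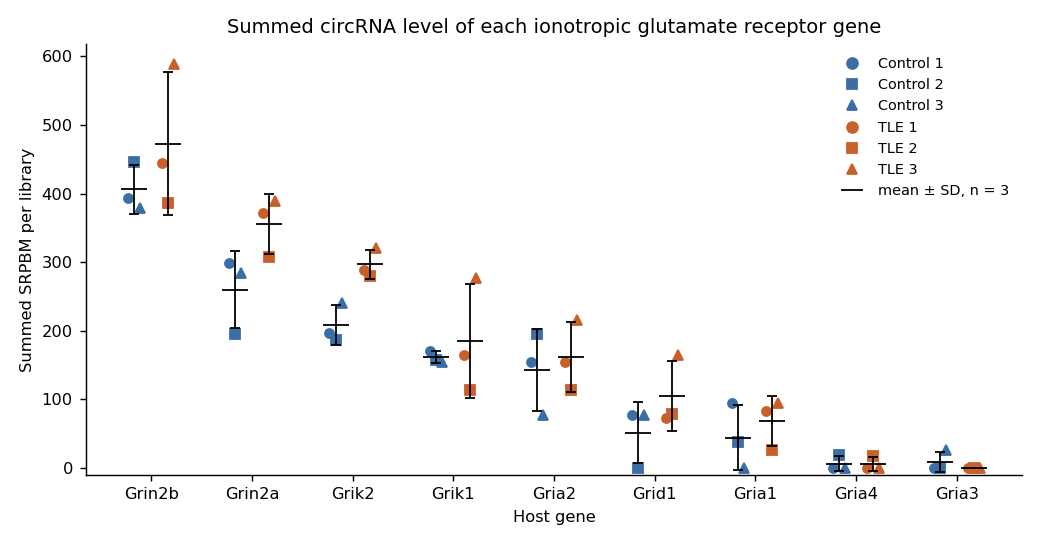
Summed SRPBM of the circRNAs of each receptor gene in each library (blue, Control; orange, TLE; the symbol shape gives the replicate), with the mean and SD of the 3 libraries of a group as bars. Control and TLE points are apart for Grin2a and Grik2 and overlap for the other 7 genes.

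Over all 6 libraries the mean summed level fell from Grin2b (439 SRPBM) through Grin2a (308), Grik2 (252), Grik1 (173), Gria2 (152), Grid1 (78.3) and Gria1 (55.9) to Gria4 (6.02) and Gria3 (4.31). Each circRNA is counted at its 1 junction, so these levels carry no length term, but a sum grows with the number of circles a gene has. Neighbours in this order were compared within libraries by an exact two-sided sign-flip permutation test, whose smallest p with 6 libraries is 0.03125. The pairs and their direction were set by the same values, so these p-values are a description. Grin2b was above Grin2a, Grin2a above Grik2 and Grik2 above Grik1 in 6 of 6 libraries (exact p = 0.03125 each, adjusted p = 0.0833 over the 8 comparisons). The mean differences were 132 ± 74.7, 55.5 ± 35.4 and 78.9 ± 57.4 SRPBM (SD, n = 6). Gria2 was above Grid1 in 5 of 6 libraries, by 73.6 ± 66.7 SRPBM, and had the same 9 reads as Grid1 in Control replicate 3 (exact p = 0.0625). Grik1 and Gria2 (21.4 ± 41.8 SRPBM, SD, n = 6) and Grid1 and Gria1 (22.5 ± 49.6 SRPBM) did not differ beyond their spread (exact p = 0.3125 each). Gria1 was above Gria4 in 5 of 6 libraries (exact p = 0.0625), and Gria4 and Gria3 differed by 1.71 ± 16.1 SRPBM (exact p = 1).

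The comparison of TLE with Control asked which circRNAs change in the cortex 24 h after Status Epilepticus. Of the 46 receptor circRNAs, 17 were listed above 0 in 3 or more libraries and entered the fit over 4271 circRNAs. A circRNA was called when its log2 fold change was at least 1.5 in size with an unadjusted p under 0.05, the threshold of the study. Of the 17, 0 were called higher and 0 lower, where 1.26% and 0.304% of all tested circRNAs were called, and 0 of 17 had an unadjusted p under 0.05 in either direction (limma), where 4.12% were higher and 1.08% lower at that threshold. After Benjamini-Hochberg adjustment 0 of the 4271 circRNAs passed 0.05. The log2 fold changes of the 17 had a median of 0.36 and ran from -0.71 to 1.26, beside a median of 0.17 over all tested circRNAs, and 12 of the 17 were above 0, beside 60.5% of all. With the libraries scaled to the same total the median was 0.16 for the 17, with 11 above 0, and 0.01 for all tested circRNAs. With a library left out, the median of the tested receptor circRNAs ran from 0.15 (without Control replicate 2, beside 0.14 for all) to 0.39 (without TLE replicate 2, beside 0.13 for all). In 2 of the 17, mmu_circ_0008486 and mmu_circ_0000249, all TLE libraries lay above all Control libraries, where 8.94% of all did so, and in 0 all TLE libraries lay below, where 2.11% did so. Both circles overlapped between the groups as a percent of the total SRPBM.

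**Figure D3:**
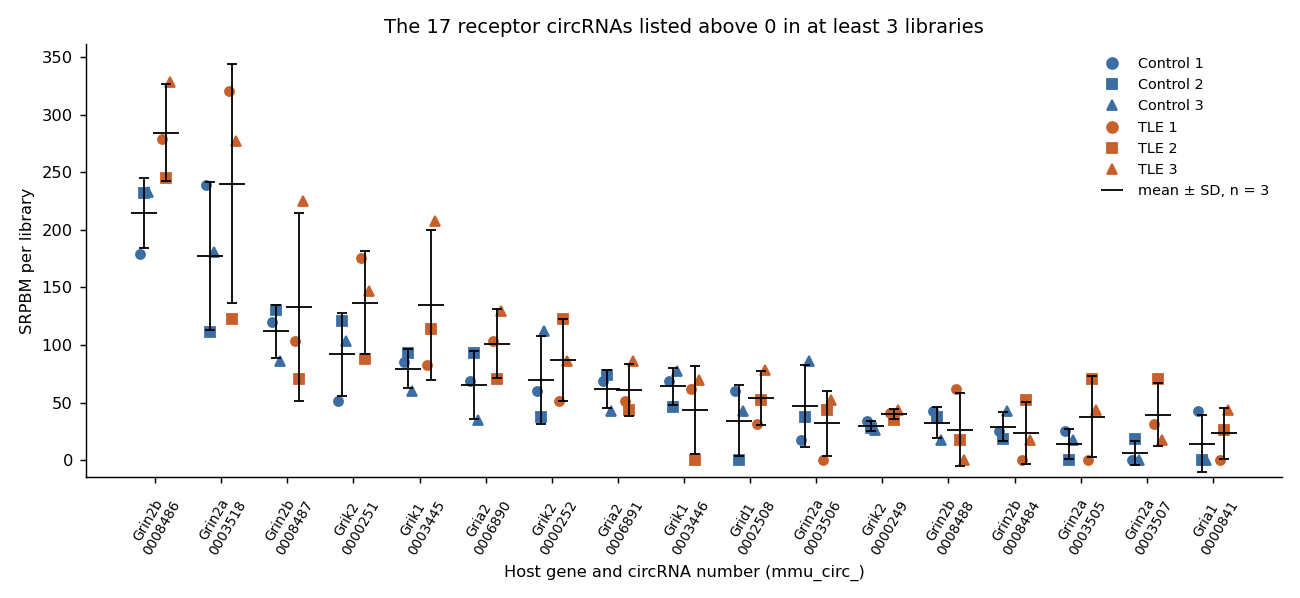
SRPBM of the 17 tested receptor circRNAs in each library (blue, Control; orange, TLE; the symbol shape gives the replicate), with the mean and SD of the 3 libraries of a group as bars. The 2 groups are apart for Grin2b mmu_circ_0008486 and Grik2 mmu_circ_0000249.

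The summed levels gave 7 receptor genes to test among 2190 host genes, since Gria3 and Gria4 were listed above 0 in fewer than 3 libraries. Of the 7, 0 were called higher, where 1.6% of all hosts were, and 0 lower, where 0.365% were, 0 had an unadjusted p under 0.05 (limma), where 5.3% were higher and 0.868% lower, and after adjustment 0 of the 2190 passed 0.05. Their log2 fold changes ran from 0.10 to 1.12 with a median of 0.45, beside 0.20 over all hosts. All 7 were above 0, where 65.2% of all hosts were, and 4 of the 7 stayed above 0 once every library was scaled to the same total SRPBM, with Grik1 (-0.11), Grin2b (-0.027) and Gria2 (-0.00036) below it. That scaling moved the median of all hosts from 0.20 to 0.02 and of the 7 receptor genes from 0.45 to 0.23. All TLE libraries lay above all Control libraries for 2 of the 7, Grin2a and Grik2, where 10.8% of all hosts did so, and below for 0, where 1.92% did so.

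**Figure D4:**
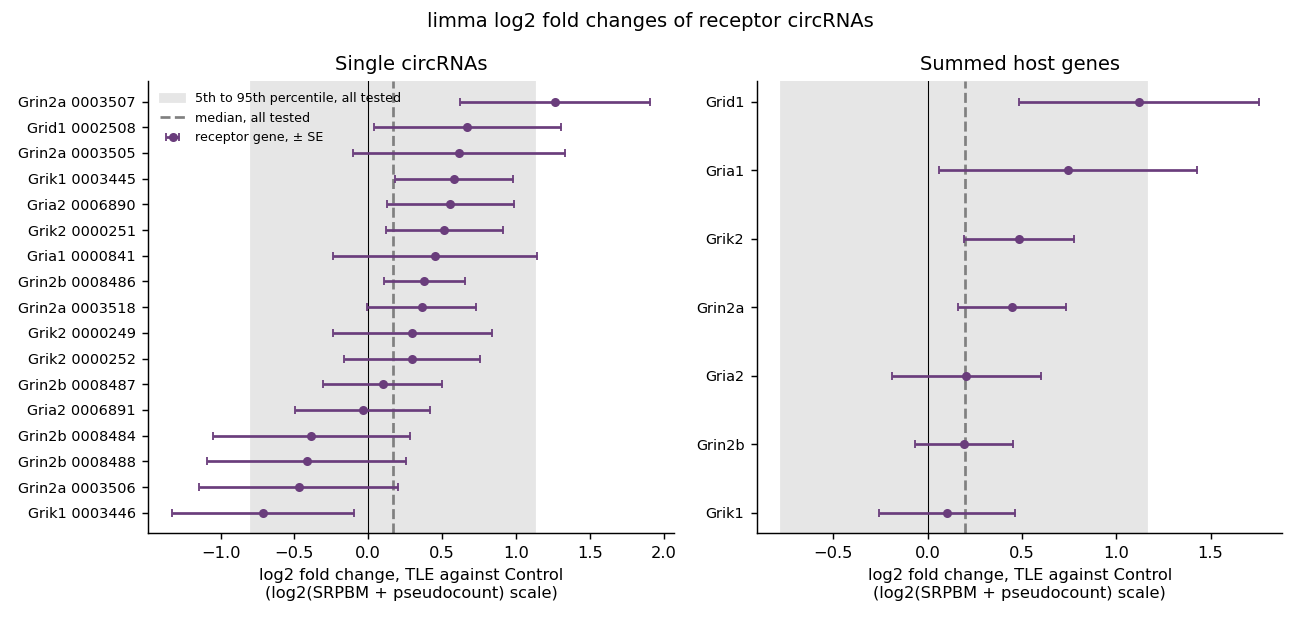
Log2 fold changes of TLE over Control (limma, on log2 of SRPBM plus 17.1) of the tested receptor circRNAs and summed receptor genes, with standard errors as bars. The dashed line is the median of all tested features and the grey band their 5th to 95th percentile. The circRNA values run from -0.71 to 1.26 and the gene values from 0.10 to 1.12, and 0 of them were called.

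Added over all 9 genes, the receptor circRNAs were at 1384, 1237 and 1240.4 SRPBM across the Control mice (1287 ± 84.3, SD, n = 3) against 1580.4, 1324 and 2051 SRPBM across the TLE mice (1652 ± 369, SD, n = 3). TLE replicate 2 was below Control replicate 1, and the difference of 365 SRPBM had an exact permutation p of 0.2. Without TLE replicate 3, the library with the highest total, the difference was 165 SRPBM. Over receptor circRNAs above 0 in at least 3 libraries it was 354 SRPBM (exact permutation p = 0.1). With junction reads thinned at random to the same total per library, the receptor circRNAs had a mean of 119 reads in Control and 130 in TLE (exact permutation p = 0.6). As a percent of the junction reads of the library, the receptor circRNAs were at 0.394, 0.374 and 0.345% in Control and at 0.471, 0.324 and 0.419% in TLE (exact permutation p = 0.5). The highest and the lowest share both came from TLE, 0.471% in replicate 1 (95% Wilson interval 0.402 to 0.551%) and 0.324% in replicate 2 (0.276 to 0.379%), and these intervals, which cover counting error only, did not overlap. Sums by subfamily were taken within the 9 genes, so other family genes such as Grik4 (97 reads) and Grin3a (50 reads) lie outside them. The NMDA sum (Grin2a and Grin2b) was 666 ± 25.4 SRPBM in Control and 829 ± 143 in TLE (SD, n = 3, exact permutation p = 0.1). TLE replicate 2 (692.6 SRPBM) was level with Control replicate 1 (692.2 SRPBM) in it. The kainate sum (Grik1 and Grik2) was 369 ± 26.2 against 482 ± 104 SRPBM (exact permutation p = 0.2). The AMPA sum was 201 ± 84.3 against 236 ± 76.9 SRPBM (exact permutation p = 0.7) and the delta sum (Grid1) 51.5 ± 44.6 against 105 ± 51.4 SRPBM (exact permutation p = 0.4), all SD with n = 3.

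Between 19 and 25 of the 46 receptor circRNAs were detected in a library, 25, 20 and 19 in Control and 19, 20 and 24 in TLE (exact permutation p = 1). Of the 46, 22 were detected in both groups, 12 in Control alone and 12 in TLE alone. These counts are a description, because the same shares were not counted over all circRNAs. A circRNA detected in a single library falls in 1 group in any case, and 45.7% of the receptor circRNAs and 45.4% of all were detected so. The circles of a single group were rare ones, with at most 6 reads in Control and 7 in TLE. Whether their absence from the other group is a difference was not tested.

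Among other ionotropic glutamate receptor genes, Grin2c, Grin2d and Grin3b had no circRNA listed. Grik4, which encodes a high-affinity kainate subunit, had 5 circRNAs with 97 reads and was at 111, 112 and 121 SRPBM across the Control mice against 279, 114 and 156 SRPBM across the TLE mice (log2 fold change 0.52, standard error 0.38, unadjusted p = 0.191, limma). Grin3a, which encodes an NMDA subunit that binds glycine, had 3 circRNAs with 50 reads and a log2 fold change of -0.12. The circRNAs of Grin1 (2 reads), Grik3 (4) and Grik5 (3) were not tested.

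A list of 40 genes whose proteins work with these receptors was read from the same fit: auxiliary subunits, scaffolds, editing enzymes, synaptic organizers, kinases and glutamate transporters. Of the 40, 17 had a circRNA and 10 could be tested. Among the 10, 1 was called higher and 0 lower, beside 1.6% and 0.365% of all hosts. In 3 (Ptk2b, Adarb2 and Camk2b) all TLE libraries lay above all Control libraries and in 1 (Cnih3) all lay below, beside 10.8% and 1.92% of all hosts, with Camk2b and Cnih3 named after their values were seen. The called gene was Ptk2b, a calcium-dependent tyrosine kinase that acts on NMDA receptors, whose 1 circRNA was listed at 0 in the 3 Control libraries, while TLE held 62.0, 78.9 and 34.6 SRPBM. It entered the fit only through the 3 TLE libraries in which it was high. Its call and its place among the 3 genes with all TLE libraries higher are therefore a description and support nothing. With any of these TLE libraries left out Ptk2b was not tested. The 3 partner genes with the highest level were Dlg1, a scaffold of the synaptic membrane (mean 341 SRPBM, log2 fold change 0.11), Grip1, which binds the tails of AMPA subunits (299 SRPBM, 0.23), and Adarb2, a brain protein of the RNA-editing enzyme family (111 SRPBM, 0.90), and 0 of these 3 passed the test. With the libraries scaled to the same total, the Dlg1 value was -0.11.

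The libraries are of bulk cortex, so fewer cells of a type and less RNA per cell cannot be told apart. The circRNA table allowed little check of the tissue label, because most marker genes of cortical cell types had no circRNA in it. Of 6 markers each, 1 was present for astrocytes (Slc1a2) and 1 for inhibitory neurons (Erbb4), and 0 for oligodendrocytes, microglia and endothelial cells. The summed marker level was 0 to 17.2 SRPBM in Control and 0 to 34.6 in TLE for astrocytes, and 17.1 to 65.1 and 0 to 77.9 for inhibitory neurons. The part of cell composition in the receptor values was not tested.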

How the data were processed

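RNA from the cortex of 3 Control and 3 TLE mice was depleted of ribosomal RNA and sequenced from both ends with a strand-specific kit. The authors aligned reads with BWA-MEM, found circRNAs with CIRI and tested differences with DESeq2, on build mm10. The values deposited by the authors are a signal in SRPBM, the junction reads of a circRNA scaled to a fixed number of mapped reads. The same table came with each of the 6 samples and was read once. All values were whole multiples (within 0.1) of the step of their library, taken as 1 junction read, which gave 32504 to 56516 junction reads per library.

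Host sums added the SRPBM of all circRNAs listed for a gene. log2(SRPBM + 17.1), the smallest value above 0, was fitted with limma 3.58.1 (lmFit, eBayes with trend, two-sided) in R 4.3.3 on features above 0 in at least 3 libraries, with Benjamini-Hochberg adjustment over all of them, so fold changes of low features are understated. Single values were compared by exact two-sided permutation tests (scipy 1.17.1). Exons, residues and junctions came from GENCODE M21 (GRCm38). Values per library were printed for host sums, the leading circle of each host, circles that were called, did not overlap or had the highest or lowest log2 fold change, called partners and the 3 with the highest level, and host genes most like the receptor sum. Paralogous circles and further circles of shared ends were chosen after their values were seen. Members, lists and tests were chosen with earlier results of these data known. Batches are not given in the sources used here. P-values of TLE against Control measure the spread between these mice, counting error included, and limma also draws on the spread of all fitted features. P-values of the gene order measure the spread of differences within libraries, over both groups together. Some items of the gene lists are not reported here.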

Additional observations from a re-analysis of the deposited data

How the results depend on the processing

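Alternatives were another pseudocount (8.55 or 1 SRPBM), no filter or a filter on the mean, eBayes without trend, libraries scaled to an equal total SRPBM, a replicate block, other call rules and each library left out. For the receptor sum and the number detected, junction reads thinned to an equal total and a filter on libraries above 0 were also used. The edgeR and DESeq2 alternatives were not run, because the deposited values are normalized and the junction reads given here were recovered from them, not taken from raw counts. Of 358 single log2 fold changes under an alternative, 334 kept their direction and side of the threshold. The number of called receptor circRNAs was 0 under every alternative with all 6 libraries and 0 to 1 with a library left out (Grin2a mmu_circ_0003507, without Control replicate 2 or TLE replicate 3). For receptor genes it was likewise 0, and 0 to 1 with a library left out (Grid1, without Control replicate 1 or 3). For partner genes it was 1, and 0 to 1 (0 without any of the TLE replicates, because Ptk2b was then not tested). The difference in receptor circRNAs detected (TLE minus Control, -0.333) ran from -1.83 to 1.5 with a library left out and was above 0 without Control replicate 1 (1.5), TLE replicate 1 (0.667) or TLE replicate 2 (0.167). The difference in summed SRPBM ran from 165 to 528.5. Scaling to the same total turned Grin2b mmu_circ_0008487 (-0.11) and the sums of Grik1 (-0.11), Grin2b (-0.027), Gria2 (-0.00036) and Dlg1 (-0.11) below 0. With a library left out, log2 fold changes crossed 0 for mmu_circ_0003446 (-1.12 to 0.044), mmu_circ_0003506 (-0.85 to 0.17), mmu_circ_0006891 (-0.26 to 0.12), mmu_circ_0008484 (-0.90 to 0.12), mmu_circ_0008487 (-0.32 to 0.42), mmu_circ_0008488 (-0.98 to 0.12) and the sums of Grik1 (-0.21 to 0.38), Gria2 (-0.13 to 0.45), Dlg1 (-0.39 to 0.36) and Grip1 (-0.16 to 0.54). In each of these cases the cause was not tested. Same-numbered libraries deviated together little, with correlations of 0.0103 to 0.0192 over circRNAs and -0.00979 to 0.0204 over host genes. Values this small cannot show whether the numbers pair the mice. With the replicate block 0 receptor circRNAs, 0 receptor genes and 1 partner gene were called, and the sum and the number detected had exact permutation p of 0.25 and 1. Depth limits the receptor values, since 21 of the 46 circRNAs had at most 3 reads and the leading circle 21 to 38 per library, and libraries of 1 group also differed by more than counting error (chi-square per degree of freedom 1.75 to 2.49 between replicates).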

Other observations

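Within the receptor genes, 3 more circRNAs were listed with no host gene and on the opposite strand. In Grik2, mmu_circ_0000254 (chr10:49746112-49763158) had 3 reads in Control replicate 3 and 4 in TLE replicate 2. A second Grik2 circRNA, mmu_circ_0000255, shares its end at 49763158 and starts 4 bases later, and had 2 and 6 reads in Control replicates 1 and 3 and 2 in TLE replicate 3. In Grin2a, mmu_circ_0003521 (chr16:9950772-9956234) had 2 reads, in TLE replicate 3. They were not added to the receptor sums.

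Among 1754 other host genes, those whose summed level followed the receptor sum most closely over the 6 libraries were Atxn10 (Pearson r = 0.987), Csnk1g3 (0.984) and Hipk3 (0.969), all on the log2 scale. These are the highest of many values over 6 libraries that also share their total SRPBM, and they are given as a description. Hipk3, with 1 circRNA, was at 1213, 1004 and 991 SRPBM across the Control mice against 1322, 1209.9 and 1713 SRPBM across the TLE mice. Atxn10 was at 367, 353 and 327 SRPBM across the Control mice against 444, 377 and 614 SRPBM across the TLE mice. Csnk1g3 was at 51.3, 46.5 and 43.1 SRPBM across the Control mice against 72.3, 52.6 and 164 SRPBM across the TLE mice.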
